A study of Homo sapiens with 12 samples.

Results

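The comparison described here sets the RNA of cells under low oxygen alone directly against that of cells under a translation inhibitor alone, in 22Rv1, a long-established line of human prostate cancer cells with an active androgen receptor. It uses 6 of the 12 libraries of the study, chosen by their labels and not by any measured value. The first 3 came from cells kept at 1% oxygen with vehicle (hypoxia cells below), and the other 3 from cells in normoxia given 10 nM zotatifin (zotatifin cells). The 3 libraries of normoxia cells with vehicle (baseline cells) gave the level from which a line was moved. They also entered the filter on low counts, the scaling and the estimate of the spread. The 3 libraries of cells given both stresses did so too. Per the labels' protocols, zotatifin was added 24 hours after seeding, for 24 hours, while the hypoxia set was placed at low oxygen overnight after seeding. The duration of low oxygen up to harvest is not spelled out, so the stresses need not have lasted equally long. The oxygen level of the normoxia set and the solvent are not given in the sources used here. All cells belong to 1 cell line. Each oxygen condition was 1 set, so other differences between the sets cannot be told apart from oxygen. Nothing beyond the titles' word for biological replicates ties the libraries to separate cultures, so the p-values measure only the spread between these libraries, which may be technical.

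Cells that lack oxygen stabilise the hypoxia-inducible factors, which bind DNA and switch on genes for glycolysis, blood vessel growth and acid balance. They also slow protein synthesis, which spares energy. eIF4A is the RNA helicase of the cap-binding complex, which unwinds the leader of an mRNA so that the ribosome can scan it, and zotatifin clamps it onto purine-rich leaders. Zotatifin thus acts first on translation, and RNA levels read what follows from that as well as any change in RNA turnover.

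The deposited table holds estimated counts for 60230 features, 1 per line, without identifiers, so the lines could not be paired with genes. Lines are numbered from the first line of data, and numbers are given for 4 lines only. Of the 60230 lines, 17993 had enough counts to be tested. Levels are in CPM, the count divided by the library size in M (mega) after TMM scaling (trimmed mean of M values), as mean ± SD over 3 libraries. They are shares of the RNA pool, so a change in total RNA per cell was not measured. Differences are log2 values from edgeR's quasi-likelihood test, hypoxia minus zotatifin, and a line was called at an adjusted p under 0.05. The hypoxia libraries held 10.5 to 12.2 M counts and the zotatifin libraries 14.2 to 16.3 M. Correlations of log2 CPM were 0.979 to 0.982 among the hypoxia libraries, 0.985 to 0.987 among the zotatifin libraries and 0.949 to 0.953 between the groups, so every pair within a group was closer than any pair between them.

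The RNA pools of the groups differed in many lines, most of them by less than 2-fold. Of the 17993 tested lines, 10245 differed between hypoxia and zotatifin cells, or 56.9%. Of these, 5006 were higher in hypoxia cells (27.8% of the tested lines) and 5239 were higher in zotatifin cells (29.1%). Upper quartile scaling turned this balance, with 5922 higher in hypoxia and 4378 with zotatifin, as did leaving out the 20 most abundant lines, with 5341 and 4909. Among the called lines 96.3% had no overlap between the 3 libraries of each group, against 63.3% of all tested lines. The median size of a called difference was 0.59 on the log2 scale. The large differences leaned towards hypoxia cells. At 2-fold or more, 1468 lines were higher in hypoxia (8.16%) and 991 with zotatifin (5.51%). At 4-fold or more the numbers were 314 and 121, and at 8-fold or more 95 and 20. These are fitted sizes, which depend on the prior count in lines near 0. Tested directly against a size of 2-fold with edgeR's glmTreat, 450 lines were higher in hypoxia (2.5%) and 348 with zotatifin (1.93%).

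The line that set hypoxia cells apart most, line 2470, was listed at 0 in all 3 zotatifin libraries and stood at 24.2, 23.6 and 25.1 CPM in the hypoxia libraries. Baseline cells held 1 count of it in all, in replicate 2. Against a floor of 3 counts over the zotatifin group, it was at least 369-fold higher in hypoxia cells (edgeR adjusted p = 2.26e-19). The line was thus detected in every hypoxia library, and the baseline cells stood with the zotatifin cells near 0. In cells given both stresses the line stood at 4.92 ± 1.47 CPM (SD, n = 3), below every library of hypoxia cells.

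Line 8470 was the next, at 62.4, 56.4 and 61.7 CPM in the hypoxia libraries and 0.21, 0 and 0.58 CPM in the zotatifin libraries. Its summed counts were 2067 and 12, a ratio of 229 after scaling, with an exact 95% counting interval from 131 to 444. The log2 difference was 7.79 (SE 0.23, edgeR adjusted p = 1.14e-17), and it was 9.11 without zotatifin replicate 3 and 7.17 without zotatifin replicate 2. The baseline cells stood at 0.66 ± 0.29 CPM, so hypoxia raised the line (log2 change 6.48, edgeR adjusted p = 4.68e-17) and zotatifin lowered it by a call near the threshold (log2 change -1.31, edgeR adjusted p = 0.045).

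On the other side, line 56109 stood at 13.8, 17.7 and 10.4 CPM in the zotatifin libraries and at 0.31, 0 and 0 CPM in the hypoxia libraries. All 4 counts of the hypoxia group lay in replicate 1. Scaled for depth, the summed counts differed 120-fold, with a 95% counting interval (exact) from 46.8 to 443 (fitted log2 difference -6.80, edgeR adjusted p = 0.000539). Without hypoxia replicate 1 the fitted value was -10.62, a figure set by the prior count and so not a bound. The baseline libraries held 1.98, 0 and 0 CPM, so the line was scarce in every vehicle group and present with the drug. It stood at 18.7 ± 2.12 CPM in the cells given both stresses.

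Line 6088 separated the stresses from both sides. It stood at 101.7, 99.2 and 102.6 CPM in the zotatifin libraries and at 1.25, 2.08 and 1.53 CPM in the hypoxia libraries, with the baseline libraries between them at 51.7, 47.4 and 46.9 CPM. The log2 difference was -5.97 (SE 0.11, edgeR adjusted p = 2.88e-28). Hypoxia lowered it by a log2 change of -4.92 and zotatifin raised it by 1.06, and none of the 3 groups overlapped another. With both stresses it stood at 4.90 ± 0.26 CPM, above every hypoxia library and below every baseline library.

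**Figure D1:**
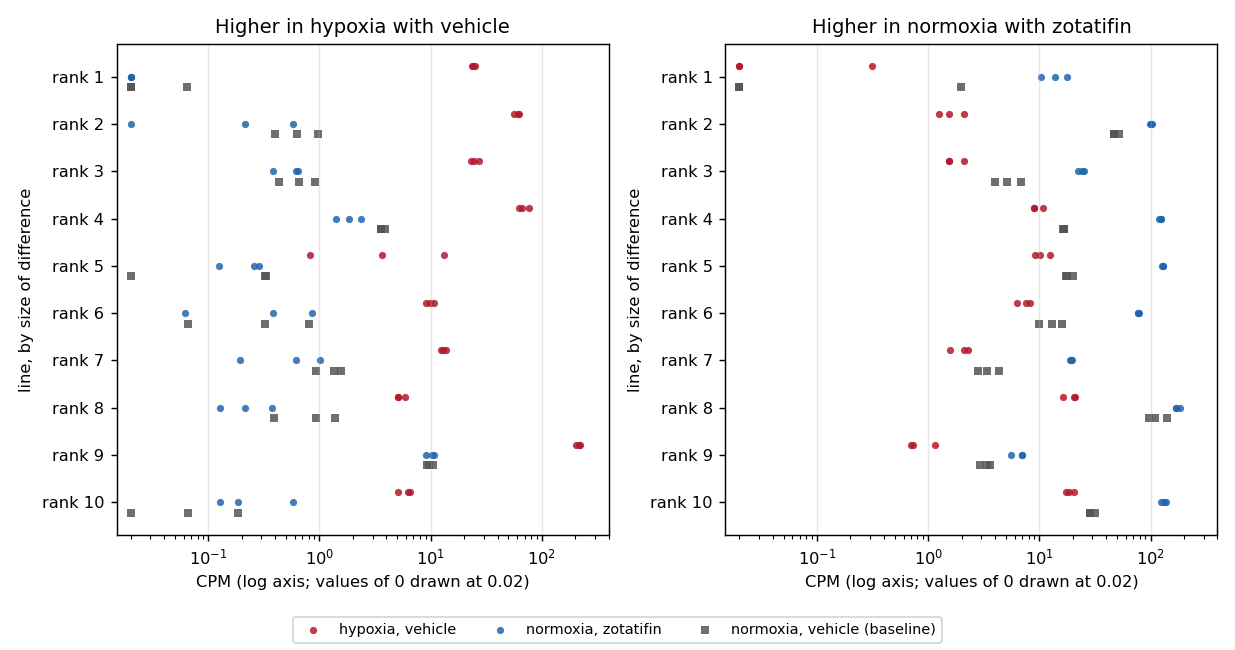
Each point is 1 library's CPM, on a log axis with values of 0 drawn at 0.02. Shown are the 10 largest differences in each direction among called lines (left, higher in hypoxia, and right, higher with zotatifin). Their higher group averaged 5 CPM or more and the libraries of the compared groups did not overlap. Circles are hypoxia cells (red) and zotatifin cells (blue), squares are baseline cells. On the left the baseline squares lie near the zotatifin points, while on the right they lie between the groups in 9 of the 10 lines, the exception being rank 1, where they overlap the hypoxia points.

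The 10 largest differences in each direction were taken among called lines whose higher group averaged 5 CPM or more and whose libraries did not overlap. Of the 10 lines higher in hypoxia, 6 were called against baseline for hypoxia only and 4 for both stresses in opposite directions. Of the 10 lines higher with zotatifin, 1 was called for zotatifin only and 9 for both in opposite directions. Ranking by the direct difference favours opposite moves, so these counts are a description. Among all called lines such moves made up 11.3% on the hypoxia side and 20.3% on the zotatifin side. The third to the tenth line spanned log2 differences of 5.49 to 4.33 on the hypoxia side and -3.77 to -2.80 on the zotatifin side. An abundant example among these was a line at 221.8, 203.7 and 215.8 CPM in the hypoxia libraries and 9.17, 10.3 and 10.8 CPM in the zotatifin libraries. Its baseline level was 9.81 ± 0.71 CPM, and zotatifin alone changed it by a log2 value of 0.04 (edgeR adjusted p = 0.721). The fifth line on the hypoxia side was uneven, at 3.67, 0.82 and 13.1 CPM in the hypoxia libraries. It missed the threshold without zotatifin replicate 2 (edgeR adjusted p = 0.0518), and its log2 difference moved from 4.67 to 3.32 without hypoxia replicate 3. The sixth and the tenth moved from 4.53 to 5.42 and from 4.33 to 5.15 without zotatifin replicate 1.

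On the zotatifin side a line at 123.7, 125.5 and 119.4 CPM in the zotatifin libraries stood at 10.8, 8.88 and 8.98 CPM in the hypoxia libraries (log2 difference -3.68, SE 0.07, edgeR adjusted p = 1.66e-27). The baseline was 16.5 ± 0.23 CPM, which the drug raised by 2.89 on the log2 scale while the line fell by 0.78 with hypoxia. The eighth line lay further from baseline in hypoxia than with the drug. It stood at 174 ± 8.03 CPM with zotatifin, 116 ± 23.1 CPM at baseline and 19.3 ± 2.48 CPM in hypoxia.

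Which stress moved a line was read from the calls of each stress against the baseline cells. These calls share the 3 baseline libraries, so how often they coincide is a description and not a result. The direct comparison is itself the test of the difference between the 2 effects, and a line called for 1 stress only may still have a smaller, uncalled effect of the other. Against baseline, 7674 lines were called in hypoxia (42.6% of those tested), 16.7% higher and 25.9% lower. With zotatifin 9538 lines were called (53%), 25.1% higher and 27.9% lower. Of the 5006 lines higher in hypoxia, 1026 had risen with hypoxia only, 1754 had fallen with zotatifin only and 564 had done both. A further 939 had fallen with both stresses, but less with hypoxia, by medians of -0.33 and -0.79 on the log2 scale. Another 190 had risen with both, and 533 were called in neither. Lines higher in hypoxia thus included more that were called lower for the drug only than called higher for low oxygen only.

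Of the 5239 lines higher with zotatifin, 1979 had risen with the drug only, 1112 had fallen with hypoxia only and 1061 had done both. Another 337 had risen with both stresses, 305 had fallen with both, and 445 were called in neither. The lines called for the drug only lay at a median log2 difference of -0.61, and those called for hypoxia only at -0.42. With upper quartile scaling the opposite moves numbered 851 on the hypoxia side and 629 on the zotatifin side, and lines lowered by hypoxia only 651. Over the 2 sides, called lines raised by both stresses went from 527 to 855 and those lowered by both from 1244 to 809, and to 825 without zotatifin replicate 1.

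The make-up was different among lines at least 2-fold apart. On the hypoxia side the lines raised by hypoxia only came first, with 515 of 1468 (35.1%), against 370 lowered by the drug only (25.2%) and 273 moved in opposite directions (18.6%). On the zotatifin side 457 of 991 lines were raised by the drug only (46.1%), 308 were moved in opposite directions (31.1%) and 103 were lowered by hypoxia only (10.4%). The baseline mean lay between the means of the stresses in 66.8% of the lines at least 2-fold higher in hypoxia. The share was 72.8% in those at least 2-fold higher with zotatifin. Over all called lines the shares were 49.4% and 62%. Choosing lines by a large direct difference favours a baseline in between, so these shares are a description. Among the lines at least 2-fold apart, the baseline was nearer to the hypoxia level, on the log2 scale, in 73.6% of those higher with zotatifin. The share was 46.4% in those higher in hypoxia. On the zotatifin side the larger step from baseline was thus most often that of the drug, while on the hypoxia side it was that of hypoxia in 53.6% of the lines.

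**Figure D2:**
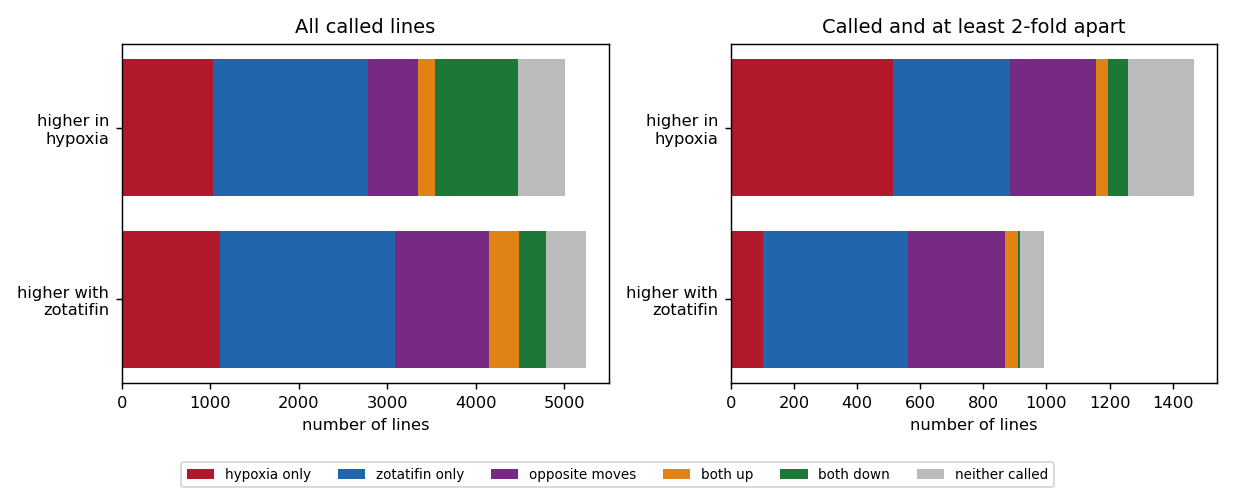
Bars count the called lines by direction of the difference and, in colour, by which stress was called against the baseline cells; the left panel has all 10245 called lines and the right panel those at least 2-fold apart. Lines called for zotatifin only (blue) form the largest block in 3 of the 4 bars, and lines called for hypoxia only (red) do so among the 1468 lines at least 2-fold higher in hypoxia.

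The classes can be illustrated by the line with the largest difference in each, under the limits given above. Among lines lowered by the drug only, the first stood at 5.31, 5.62 and 9.46 CPM in the hypoxia libraries and at 1.65, 0.12 and 0 CPM in the zotatifin libraries, with a baseline of 5.44 ± 0.95 CPM. Its log2 difference of 3.58 (edgeR adjusted p = 0.00296) was 6.55 without zotatifin replicate 1 and 2.98 without replicate 3. Among lines lowered by hypoxia only, the first stood at 4.14, 4.35 and 4.20 CPM in hypoxia and 29.4, 28.4 and 29.1 CPM with zotatifin, with a baseline of 25.6 ± 3.33 CPM. Its 3 hypoxia libraries lay far below all 6 others.

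Some lines rose with both stresses but to different heights. One stood at 22.6, 23.7 and 26.7 CPM in hypoxia and 4.01, 3.41 and 3.53 CPM with zotatifin, over a baseline of 2.08 ± 0.46 CPM. Its log2 difference was 2.74 (SE 0.12, edgeR adjusted p = 3.27e-19), and with both stresses it stood at 86.8 ± 1.82 CPM, above every library of either stress alone. The counterpart rose more with the drug, from 6.26 ± 1.26 CPM at baseline to 43.8 ± 0.95 CPM with zotatifin and 9.52 ± 1.08 CPM in hypoxia, and stood at 71.0 ± 2.12 CPM with both. Among lines that fell with both, one went from 134.7 ± 9.45 CPM to 34.4 ± 3.42 CPM in hypoxia and 108.9 ± 2.75 CPM with zotatifin (log2 difference -1.67, edgeR adjusted p = 6.47e-19).

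Of the 17993 tested lines, 31 went at least 2-fold up with one stress and at least 2-fold down with the other, both called. In 23 lines hypoxia was the stress that raised and zotatifin the one that lowered, with direct log2 differences of 2.31 to 7.79. In 8 lines it was the reverse, with sizes of 2.48 to 5.97 and line 6088 at the top. The mean CPM over the 6 libraries had a median of 2.8 in the 23 lines and 7.68 in the 8. Both changes share the 3 baseline libraries, so these numbers are a description.

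Some lines were moved far from baseline by each stress in the same direction. At least 2-fold up with each stress were 201 of the 17993 tested lines. Of the 201, 25 were higher in hypoxia, 27 were higher with zotatifin and 149 were not called between the stresses. Only 21 of the 201 had a 95% interval of the difference that lay within 1.5-fold, so for most of the others the data do not show whether the levels match. At least 2-fold down with each stress were 80 of the 17993 lines. Of these 12 were higher in hypoxia and 25 with zotatifin, and 36 had an interval within 1.5-fold. An abundant example stood at 174.6, 169.4 and 164.5 CPM in hypoxia and 159.5, 182.5 and 163.5 CPM with zotatifin, down from 582.9 ± 36.6 CPM at baseline. The difference was 0.01 on the log2 scale, with a 95% interval from -0.10 to 0.11. The line was chosen for its small difference, so that value is a description. With both stresses it stood at 48.8 ± 1.52 CPM, below every library of either stress alone.

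Over all 17993 tested lines, the interval lay within 1.5-fold in 6685 (37.2%). Of the 7748 lines that were not called, 3528 had such an interval and 4220 had a wider one.

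Abundant lines differed too. Among lines at least 1.5-fold apart, the most abundant on the hypoxia side stood at 6287, 6229 and 6096 CPM in hypoxia and 1864, 1891 and 1869 CPM with zotatifin (log2 difference 1.73, SE 0.04, edgeR adjusted p = 1.73e-25). Its baseline of 2381 ± 179 CPM lay between, nearer to the zotatifin level. The second lay further from baseline with the drug than in hypoxia, at 4289, 4348 and 4334 CPM in hypoxia and 750.3, 760.8 and 748.6 CPM with zotatifin. Its baseline was 2796 ± 146 CPM, so zotatifin lowered it by a log2 change of -1.89 while hypoxia raised it by 0.63. With both stresses it stood at 815.6 ± 21.3 CPM, close to the level with the drug alone. The third, at 2314 ± 287 CPM in hypoxia and 1112 ± 138 CPM with zotatifin, lay either side of a baseline of 1514 ± 73.3 CPM.

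On the zotatifin side the most abundant such line took 33380 ± 4710 CPM with zotatifin and 21730 ± 1661 CPM in hypoxia (log2 difference -0.62, SE 0.14, edgeR adjusted p = 0.0042). The baseline libraries stood at 42420, 32210 and 33890 CPM, overlapping the zotatifin libraries, so low oxygen was the stress with a call. The next stood at 5613 ± 802 CPM in hypoxia, 9277 ± 1069 CPM with zotatifin and 8953 ± 1913 CPM at baseline. The third was moved by the drug only, from a baseline of 3411 ± 36.2 CPM to 5690 ± 20.7 CPM, while hypoxia cells stood at 3353 ± 63.2 CPM. At 64 CPM or more, 94 lines were at least 2-fold higher in hypoxia and 141 with zotatifin, of which opposite moves made up 56 and 83. At all abundances such moves were 18.6% and 31.1% of the lines at least 2-fold apart. Abundant lines had a median SE of 0.05 and 78.8% were called. Whether this precision accounts for their larger share of opposite moves was not tested. The opposite class also moved with upper quartile scaling.

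**Figure D3:**
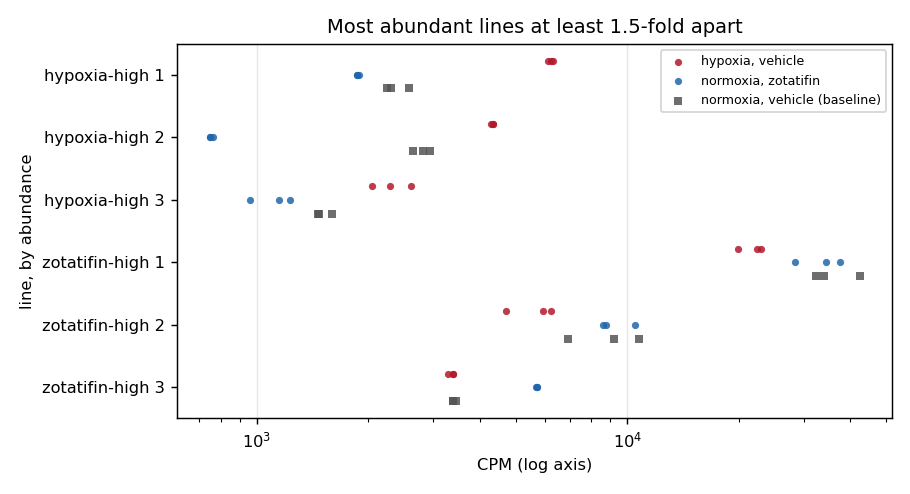
Each point is 1 library's CPM (log axis) for the 3 most abundant called lines in each direction that were at least 1.5-fold apart, with hypoxia cells in red, zotatifin cells in blue and baseline cells as squares. In all 6 lines the red and blue points do not overlap; in the third zotatifin-high line the baseline squares lie at 3387 to 3453 CPM, on the hypoxia side.

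The balance of the difference changed with abundance. Under 1 CPM, 422 lines were called higher in hypoxia and 139 higher with zotatifin, and from 1 to 4 CPM the numbers were 765 and 423. From 16 to 64 CPM they were 1637 and 2245, and at 64 CPM or more 1060 and 1456. With TMM scaling, the lean of the large differences towards hypoxia lay in the lines under 16 CPM. At 2-fold or more, 420 lines were higher in hypoxia and 139 with zotatifin under 1 CPM. The numbers were 488 and 258 from 1 to 4 CPM, and 292 and 237 from 4 to 16 CPM. They were 174 and 216 from 16 to 64 CPM and 94 and 141 in the most abundant bin. With upper quartile scaling these last were 219 and 154, and 118 and 108, so the side with more lines in the abundant bins turned with the scaling. The median log2 difference over all tested lines was 0.39 in the scarcest bin, then 0.20, 0.04 and -0.07, and -0.08 in the most abundant bin. With upper quartile scaling these medians were 0.48, 0.29, 0.13, 0.02 and 0.01, so the sign in the upper 2 bins turned while the order remained. Against baseline, the median under 1 CPM was 0.35 for hypoxia and 0.02 for zotatifin. The filter by group lets a scarce line pass through the group where it is high, and 2 of the 4 groups are hypoxic. With a filter on the mean of the 6 libraries instead, lines from 0.5 to 1 CPM had a median log2 difference of 0.40, and 362 were at least 2-fold higher in hypoxia against 119 with zotatifin. Their medians against baseline were 0.40 for hypoxia and 0.05 for zotatifin. This mean can also be carried by 1 group where a line is high. What part the filter has in the lean was not tested. The share of lines called was 23.9% in the scarcest bin and 78.8% in the most abundant, and the median SE fell from 0.55 to 0.05, so scarce lines were called only for large differences.

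**Figure D4:**
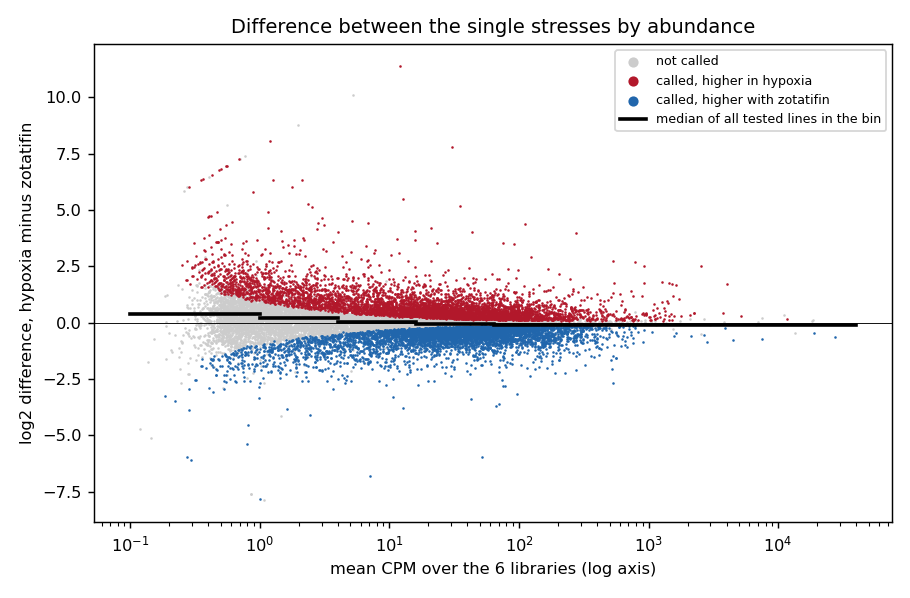
Each point is 1 tested line, with its mean CPM over the 6 libraries (log axis) and its log2 difference, hypoxia minus zotatifin; colours mark called lines and black steps are the medians of all tested lines in 5 ranges of abundance. The steps go from 0.39 in the scarcest range to -0.08 in the most abundant, and the called lines above 4-fold lie more often on the hypoxia side.

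The hypoxia libraries also held more lines. Lines above 0 numbered 31159, 28055 and 28023 in the hypoxia libraries and 25415, 25025 and 25188 in the zotatifin libraries, although the hypoxia libraries were shallower. With every library thinned to 10394167 counts the means were 28685 ± 1392 and 23959 ± 332 (SD, n = 3). The groups did not overlap (two-sided exact permutation p = 0.1, the lowest possible with 3 against 3, adjusted p = 0.125 over 5 measures per library). Baseline cells, at 23482 ± 514 lines, were close to the zotatifin cells. Cells given both stresses, also at 1% oxygen, held 28900 ± 725 lines after the same thinning, close to the hypoxia cells. The 20 most abundant lines took 18.0% ± 1.54 of the counts in hypoxia cells and 19.1% ± 1.34 in zotatifin cells, a difference smaller than the spread between libraries (exact permutation p = 0.4, two-sided). Of tested lines above 0 in all libraries of one stress and at 0 in all of the other, 11 were present in hypoxia cells, at up to 24.3 CPM, and 3 in zotatifin cells, at up to 1.99 CPM. These lines could pass the filter through the group where they are high, so the numbers are a description.

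Where the cells given both stresses stood was read for the lines at least 2-fold apart, as a description. Their libraries took part in the filter, the scaling and the spread but not in the compared means. Over all 17993 tested lines, these 3 libraries lay wholly above the baseline libraries in 33.1% and wholly below in 33.6%. Of the 515 lines raised by hypoxia only, 383 lay with all 3 of these libraries above all 3 baseline libraries. Of the 457 lines raised by the drug only, 402 did so. Of the 370 lines lowered by the drug only, 263 lay wholly below baseline, as did 52 of the 103 lowered by hypoxia only. The choice used the baseline libraries, so these numbers carry no test.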

How the data were processed

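RNA of 22Rv1 cells was measured in 12 libraries, made from total RNA with a stranded kit, per the labels' protocols. The authors deposited estimated counts per line. The submitters' processing notes list Salmon, DESeq, DESeq2 and the build hg38, with no version or role for any of them and no annotation. About 33.2% of the values above 0 departed from whole numbers by over 0.0005, so a method that splits reads between similar transcripts may leave near-identical copies uncertain.

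Counts were rounded to whole numbers and kept by edgeR's filterByExpr by group (minimum count 10, minimum total 15), which left 17993 of the 42842 lines above 0 and 99.8% of the counts. Library sizes were scaled by TMM. Lines were tested by robust quasi-likelihood in edgeR 4.0.16 (R 4.3.3), fitting each group's mean over all 12 libraries, with 8 residual and a median of 22.6 prior degrees of freedom, two-sided, and p-values were adjusted by Benjamini-Hochberg over all 17993 lines. Standard errors came from each log2 difference and its F statistic. Bins of abundance used the mean CPM of the 6 libraries. Counting intervals are exact binomial (Clopper-Pearson) and, like floors of 3 counts, cover counting error only.

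Single lines were taken by rule. The 10 largest differences each way and the largest in each class were taken under limits. These were an adjusted p under 0.05, a higher group of 5 CPM or more and libraries that did not overlap. The 3 most abundant called lines each way at least 1.5-fold apart were taken without the limits on CPM and overlap. The 5 lines each way moved at least 2-fold by both stresses with the smallest difference needed no call between the stresses. The report describes part of these single lines, and the examples among them were picked after their values were seen. The comparison and rules were chosen with earlier results of these data known. The fit was tested on simulated data with a common spread for all lines. Changes of 1.5-fold were called in 55.2% of 67 lines, 2-fold in 88.1% of 67 and 4-fold in 97% of 66. Among the 17438 simulated lines tested, 8 without a change were called. Alternatives were other scalings, no filter, DESeq2 (1.42.0), limma-voom (limma 3.58.1), fewer libraries in the fit, thinning and a replicate block. Each of the 9 libraries of hypoxia, zotatifin and baseline cells was also left out in turn. A filter at a mean of 0.5 CPM over the 6 libraries was added after the data were seen.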

Additional observations from a re-analysis of the deposited data

Results flagged for a closer look

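The lines too scarce to be tested, which no comparison above uses, held 0.244% ± 0.045 of the counts in hypoxia cells (SD, n = 3). The share was 0.125% ± 0.006 in baseline cells, 0.126% ± 0.004 in zotatifin cells and 0.242% ± 0.024 in cells given both stresses. The difference between hypoxia and zotatifin cells had an exact permutation p of 0.1 (two-sided, the smallest the design allows, adjusted p = 0.125 over 5 measures per library). The share is flagged because, in data outside the tested lines, it lay above the level of the baseline cells. The difference from the baseline cells was not tested.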

How the results depend on the processing

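The number of called lines stayed within 1.5 times of 10245 under all 20 alternatives, from 9356 to 10648, with DESeq2 at 9455, limma-voom at 10095 and the 6 libraries alone at 10208. Calls higher in hypoxia were 48.9% of all with TMM, 57.5% with upper quartile factors, 52.1% without the 20 most abundant lines and 45.1% with no filter. Upper quartile scaling moved the class counts: opposite moves went from 564 to 851 on the hypoxia side and from 1061 to 629 on the zotatifin side, lines lowered by hypoxia only from 1112 to 651, called lines raised by both stresses from 527 to 855 and lowered by both from 1244 to 809. It also moved the medians by abundance to 0.48, 0.29, 0.13, 0.0169 and 0.00657, from the scarcest to the most abundant lines. With each hypoxia, zotatifin or baseline library left out in turn, lines lowered by both numbered 825 to 1236. The 825 came without zotatifin replicate 1. The cause was not tested. Of 656 refitted values of the 33 lines taken singly for the report, 1 lost its call, given with its line above, and 4 changed sign. All 4 belong to the line chosen for its small difference, which was not called and went from 0.01 to at most -0.05 in the other direction. Replicate numbers showed no pairing between hypoxia and zotatifin libraries, whose same-numbered deviations correlated at -0.05, 0.03 and -0.08. Pairing with the baseline libraries was not checked in this way. The replicate block called 10254 lines. A filter on the mean of the 6 libraries, chosen after seeing the data, called 10197 of 17648 lines. Scarce lines are limited by depth, with a median SE of 0.55 under 1 CPM.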
